A study of Mus musculus with 12 samples.

Results

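Uridines at positions 38, 39 and 40 of transfer RNA (tRNA) were examined for stops that depend on CMC, in hematopoietic stem and progenitor cells (HSPCs), the blood-forming cells, from wild-type mice that were young or old. The deposited rows are written in DNA letters, so these uridines are the T rows at the 3 positions. Positions were counted from the anticodon (positions 34 to 36). The anticodon was the place in rows 32 to 38 of an entry where the letters of the entry's name stood after a T or C, and entries with no such place or with several were set aside. The 404 tRNA entries carried 213 distinct sets of values, each counted once, of which 186 could be numbered. They held 139 such T bases, 26 at position 38, 102 at position 39 and 11 at position 40, out of 3129 T rows in all distinct entries. Coverage of at least 20 reads in all 12 libraries, needed for a test, was reached at 97 of the 139 (20, 71 and 6 by position).

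The libraries fell into 4 groups of 3: young with BEU buffer alone, young with CMC in that buffer, and old with each. All mice carried the wild-type genotype, and no age in weeks or months and no pooling of animals is given in the labels used here. All RNA was small RNA treated with wild-type AlkB and the D135S mutant, demethylases that remove methyl groups which block reverse transcriptase, and all was then held in sodium carbonate buffer. CMC is a carbodiimide that stays on pseudouridine after this step and stops reverse transcriptase there. The tables hold tRNA alone, so the cell type could not be checked against marker genes. Nothing in the labels says that libraries of a group came from different animals, so a p-value here measures library-to-library spread, which may be technical.

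Pseudouridine is an isomer of uridine made by pseudouridine synthases, each of which recognises particular places in RNA. In the L-shaped tRNA the anticodon arm is a stem topped by a loop of bases 32 to 38. Position 38 is the last base of the loop and faces position 32, and positions 39 and 40 are the first stem bases on the 3′ side, opposite positions 31 and 30. In mammals PUS3 is the synthase known for positions 38 and 39, and in bacteria a single enzyme, TruA, is known to act at positions 38 to 40. Pseudouridine here is known to stiffen the arm and to help hold the reading frame. The study's title concerns another synthase, PUS10, which is known for the T loop.

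The anticodon arms below run from position 27 to position 43, 5′ to 3′, as the deposited rows spell them, with the T bases under study in capitals. They are shown because they cover each position, each of the 3 combinations of positions that shared a tRNA among the tested bases, and tRNAs with high and low stops. The first 4 carry T38 without T39 or T40.
tRNA-Ala-AGC-4-1: ctcgcttagcaTgcgag
tRNA-Pro-TGG-2-1: ctcgctttgggTgcgag
tRNA-Leu-CAG-1-1: ctgcgttcaggTcgcag
tRNA-Ala-AGC-2-1: cgtgcttagcaTgcacg
The next 5 carry T at a pair of the positions, as T38 with T40, T38 with T39 or T39 with T40.
tRNA-Ala-CGC-1-1: catgcttcgcaTgTatg
tRNA-Ala-TGC-2-1: catgctttgcaTgTatg
tRNA-Leu-CAA-2-1: ccagactcaagTTctgg
tRNA-Gly-CCC-1-1: caagattcccaTTcttg
tRNA-Arg-TCT-1-1: ttggacttctaaTTcaa
The last 5 carry T39 alone.
tRNA-Gln-TTG-1-1: ctggactttgaaTccag
tRNA-Phe-GAA-1-1: ttagactgaagaTctaa
tRNA-Met-CAT-1-1: tcagtctcataaTctga
tRNA-Arg-ACG-1-1: tctgactacggaTcaga
tRNA-Cys-GCA-1-1: tttgactgcagaTcaag

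T was common at position 39 and rare at the positions beside it. Among the distinct numbered entries with a base there, T stood at position 39 in 102 of 184 (55.4%), at position 38 in 26 of 182 (14.3%) and at position 40 in 11 of 184 (5.98%). The T38 bases lay in tRNAs of Ala, Pro, Leu and Gly, where the tested ones carried T at position 32 in 18 of 20 and C in 2, both Leu-CAA. Of the tested T39 bases, 68 of 71 faced A at position 31, the pair that A and U form, and the other 3, all in Met-CAT, faced T. All 6 tested T40 bases faced G at position 30, the wobble pair of G and U. The 42 bases left untested had a lowest coverage of 1 to 19 reads. At position 38 they were 3 in Ala, 2 in Leu and 1 in Pro tRNAs, and at position 40 3 in Arg, 1 in Cys and 1 in Pro. At position 39 they were 8 in Cys, 6 in Lys, 4 in Leu, 3 each in Arg and Met, 2 each in Gln and Ser and 1 each in Gly, His and Ile tRNAs.

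The measure at each base was the stop rate, the percent of reads covering the base that ended there, and the rise is the stop rate with CMC minus that with BEU in the same table, in percentage points. Median coverage at the tested bases was 1121 to 5185 reads per BEU library but 74 to 579 per CMC library, so the CMC rates carry most of the counting error. No coverage exceeded 8015 reads, which resembles a cap on depth. At 41 of the 97 bases up to 3 libraries reached at least 7500 reads at the base or 5′ of it. BEU rates of 0.05% or lower in such libraries rest on a handful of stop reads and were hardly measured. The reads stopped at 34 of the 97 bases have the same sequence as those from at least 1 other distinct entry, so such bases are not separate measurements.

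CMC raised stops at most of the tested bases at both ages. In young cells 81 of 97 were called, and 18.2% of all tested T rows were called by the same rule, against 0.394% of A, C and G rows. In old cells 82 of 97 were called, beside 19.8% of T rows and 0.623% of the other bases. A base was called with an adjusted p under 0.05 (edgeR's quasi-likelihood test, Benjamini-Hochberg over 10059 bases), a mean rise of 10 points or more and a higher rate with CMC in each of the 3 pairs. By position, 19 of 20 T38 bases were called in young cells, as were 56 of 71 T39 bases and 6 of 6 T40 bases. The old cells gave 19, 57 and 6. The same 81 bases were called at both ages, and T39 of tRNA-Trp-CCA-5-1 in old cells alone, with rises of 9.81 ± 3.51 points in young cells and 13 ± 3.37 in old cells (SD, n = 3 pairs each). A, C or G at the same 3 positions was called in 1 of 328 cases at each age (0.305%). That base was C39 of tRNA-Pro-TGG-1-1, directly 3′ of a T38, where the rise was 12 ± 4.16 points in young cells and 12.3 ± 5.42 in old cells (SD, n = 3 pairs each).

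**Figure D1:**
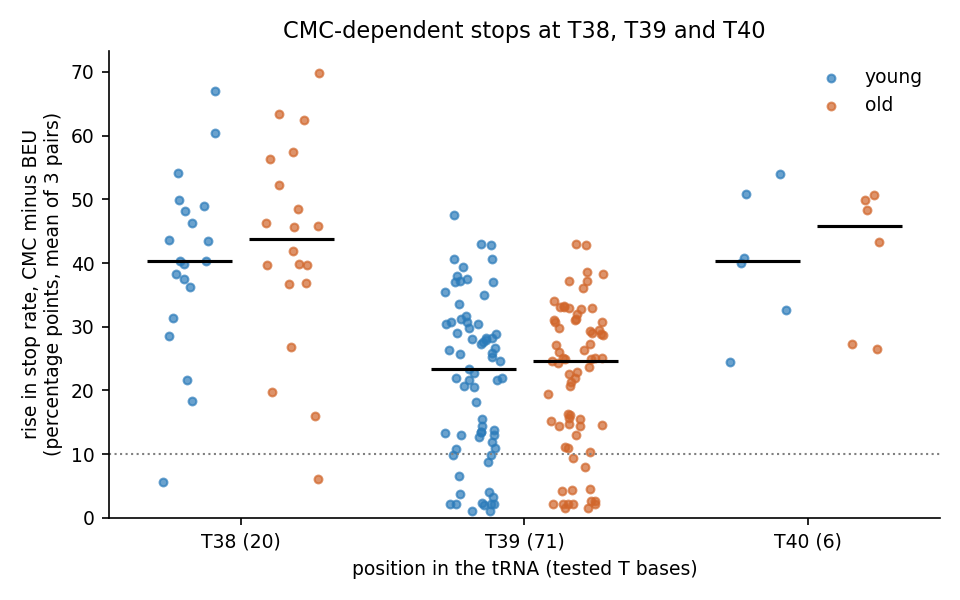
Rise in stop rate with CMC at each tested T base, by position and age (points, mean of 3 pairs each; black bars, medians over bases; dotted line, the 10-point minimum for a call). The T38 bases reach up to 69.9 points in old cells, and the T39 bases include a group under 10 points.

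Rises at T38 ran from 5.80 to 68.4 points over the 6 pairs, with a median of 42.7. The largest was in tRNA-Ala-AGC-6-1, an alanine tRNA, at 68.4 ± 2.23 points (SD, n = 6 pairs). Next among tRNA-Ala-AGC, tRNA-Ala-AGC-4-1 gave BEU stop rates of 1.74%, 2.71% and 2.51% in the 3 young libraries and 1.71%, 1.52% and 1.96% in the old ones. Its CMC rates were 63.1%, 62.9% and 62.1% in young and 65.6%, 66.1% and 63.8% in old libraries. Every CMC library was thus far above every BEU library, and the rise was 60.4 ± 0.913 points in young cells and 63.4 ± 1.43 in old cells (SD, n = 3 pairs each; edgeR adjusted p = 1.17e-07 and 6.62e-08). The proline tRNAs lay lower than both of these alanine entries, though not lower than every alanine tRNA. T38 of tRNA-Pro-AGG-1-1 rose by 45.0 ± 2.45 points, that of tRNA-Pro-CGG-1-1 by 40.9 ± 2.19 and that of tRNA-Pro-TGG-2-1 by 39 ± 2.08 (SD, n = 6 pairs each). From T38 to the 3′ end these 3 have the same sequence, so a read stopped there could come from any of them, and each reached the ceiling in 3 libraries.

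In the leucine tRNAs T38 of tRNA-Leu-CAG-2-1 rose by 40.05 ± 2.63 points and that of tRNA-Leu-CAA-3-1 by 51.3 ± 10.6 (SD, n = 6 pairs each). The wide spread in tRNA-Leu-CAA-3-1 came with a CMC rate of 75.6% in old replicate 2, against 44.6% to 53.8% in the other 5 CMC libraries. Glycine tRNA-Gly-CCC-1-1 was the T38 base with no call at either age. Its BEU rates were 1.67%, 2.26% and 2.32% in young and 2.37%, 1.46% and 1.5% in old libraries, and its CMC rates 9.55%, 7.39% and 6.02% in young and 8.14%, 8.62% and 6.65% in old. The CMC libraries were above the BEU libraries without overlap, and the rise was 5.57 ± 2.13 points in young cells and 6.03 ± 1.02 in old cells (SD, n = 3 pairs each; edgeR adjusted p = 0.00102 and 0.000308), under the 10-point minimum. Averaged by anticodon, T38 ranged from 52.3 ± 10.1 points in Leu-CAA, 49.9 ± 5.11 in Ala-CGC and 48.5 ± 2.32 in Ala-AGC to 31.9 ± 4.68 in Ala-TGC and 5.80 ± 1.51 in Gly-CCC (SD, n = 6 pairs each). Pro-AGG, Pro-CGG, Leu-CAG and Pro-TGG stood between these, at 45.0, 40.9, 37.6 and 36.5 points. Leu-CAA, Ala-CGC and Ala-AGC differed by less than the largest of their SDs, as did Leu-CAG and Pro-TGG. Gly-CCC lay further from every other anticodon than any of their SDs.

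Rises at T39 were lower, from 1.33 to 42.9 points with a median of 24.6. Both tested Gln-TTG entries were the highest. T39 of tRNA-Gln-TTG-3-1 had CMC stop rates of 43.2%, 46.1% and 45.3% in young and 44.9%, 39.7% and 48.0% in old libraries. Without CMC its young rates were 1.87%, 2.34% and 1.87%, and its old rates 0.0375%, 1.45% and 2.17%, the lowest of them from a library at the ceiling. The rise was 42.9 ± 1.31 points in young cells and 43 ± 4.15 in old cells (SD, n = 3 pairs each; edgeR adjusted p = 0.00555 and 0.00169). Phenylalanine tRNA-Phe-GAA-1-1 rose by 36.7 ± 4.93 points, serine tRNA-Ser-CGA-1-1 by 36.6 ± 4.81 and tRNA-Ser-AGA-2-1 by 36.6 ± 3.63 (SD, n = 6 pairs each). Methionine tRNA-Met-CAT-1-1, with T instead of A facing T39, gave 36 ± 4.14 points, and arginine tRNA-Arg-CCG-2-1 gave 34.1 ± 5.02. Lysine tRNA-Lys-CTT-3-1 rose by 33.4 ± 1.79 points. The highest young value was in isoleucine tRNA-Ile-TAT-2-1, at 47.6 ± 4.48 points (SD, n = 3). Its lowest coverage over the 12 libraries was 24 reads, in old CMC replicate 2.

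At the other end, among the best-covered entries of each anticodon, stood cysteine and several arginine tRNAs. Less covered entries of Gln-CTG, Lys-CTT and Tyr-GTA lay lower than these, down to 2.43, 3.32 and 4.03 points. The best-covered cysteine entry, tRNA-Cys-GCA-3-1, gave BEU rates of 0.219%, 0.309% and 0.360% in young and 0.151%, 0.257% and 0.203% in old libraries. Its CMC rates of 12.5%, 11.8% and 15.4% in young and 15.2%, 15.9% and 12.8% in old libraries did not overlap with these. The rise was 13 ± 1.87 points in young cells and 14.4 ± 1.62 in old cells (SD, n = 3 pairs each; edgeR adjusted p = 2.89e-07 and 1.66e-07). Over the 12 tested Cys-GCA entries the rise averaged 6.39 ± 1.36 points (SD, n = 6 pairs), from 1.33 to 13.9 by entry, and 7 of the 12 were not called at either age. Of those 7, 5 are the entries tRNA-Cys-GCA-1-1, 4-1, 16-1, 17-1 and 21-1, which share the whole sequence from T39 to the 3′ end and lay between 2.11 and 2.18 points. T39 of tRNA-Arg-TCT-1-1 rose by 13.7 ± 5.36 points, that of tRNA-Arg-ACG-1-1 by 14.3 ± 4.14 and that of tRNA-Arg-TCG-2-1 by 22.0 ± 3.71 (SD, n = 6 pairs each).

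By anticodon, T39 ran from Gln-TTG at 42.9 ± 2.77 points through Ile-TAT (39.3 ± 9.63), Ser-AGA (37.4 ± 4.90), Ser-CGA (37.4 ± 6.02), Arg-CCG (35.6 ± 5.12) and Phe-GAA (34 ± 5.19; SD, n = 6 pairs each). The middle of the order held Leu-CAA, Leu-AAG, Ser-TGA, Met-CAT, Ser-GCT, Leu-TAA, Leu-TAG, Gly-CCC and Gln-CTG, from 31.7 down to 24.2 points. Lys-CTT, Trp-CCA, Arg-TCG, Tyr-GTA, Arg-TCT and Arg-ACG followed between 17.3 and 9.86 points, and Cys-GCA was lowest. Some entries share the sequence from T39 to the 3′ end across anticodons, so their stopped reads look alike. Both tested Gln-TTG entries share it with tRNA-Gln-CTG-3-1 and tRNA-Gln-CTG-4-1, and these 4 ranged from 28.8 to 42.9 points. The others are tRNA-Arg-CCG-1-1 with tRNA-Arg-TCG-2-1 (37.2 and 22.0 points) and tRNA-Ser-AGA-1-1 with tRNA-Ser-TGA-2-1 (38.3 and 27.8). These anticodons are thus not fully separate measurements. Most neighbours in this order differed by less than their SDs, and the largest step between neighbours lay between Gln-CTG at 24.2 ± 2.38 and Lys-CTT at 17.3 ± 1.87. Both of these averages hide wide ranges, from 2.43 to 32 points over 5 Gln-CTG entries and from 3.32 to 33.4 over 3 Lys-CTT entries. Position 37, the base 3′ of the anticodon, was A in 27 tested T39 entries with a median rise of 29.3 points and G in 44 with a median of 15.3. Each base at 37 goes with a fixed set of anticodons, and the 12 Cys-GCA entries are all among those with G.

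**Figure D2:**
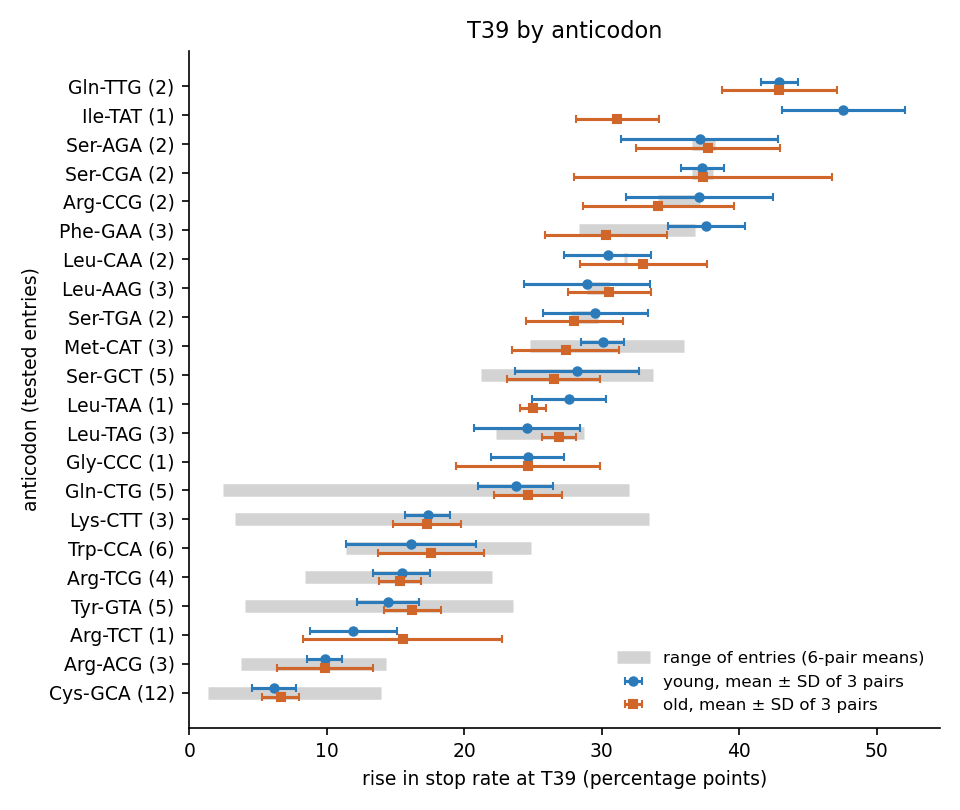
Rise in stop rate at T39 by anticodon (points; circles and squares, mean ± SD of 3 young and of 3 old pairs; grey bars, range of the entries' 6-pair means; number of tested entries in brackets). Gln-TTG is highest at 42.9 points and Cys-GCA lowest at 6.39, and the grey bars of Gln-CTG and Lys-CTT are the widest.

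At T40 all 6 tested bases were called at both ages, in 5 alanine entries and 1 arginine entry. T40 of tRNA-Ala-CGC-1-1 had BEU rates of 5.10%, 5.37% and 4.09% in young and 3.95%, 4.90% and 3.75% in old libraries. Its CMC rates were 58.6%, 57.7% and 60.2% in young and 56.5%, 51.1% and 54.9% in old libraries. These ranges are far apart, and the rise was 54 ± 1.91 points in young cells and 49.9 ± 3.31 in old cells (SD, n = 3 pairs each; edgeR adjusted p = 1.89e-07 and 1.66e-07). T40 of tRNA-Ala-TGC-2-1, with the same sequence from there to the 3′ end, rose by 49.6 ± 3.03 points (SD, n = 6 pairs). In tRNA-Arg-TCT-1-1 the T40 rates with CMC were 38.5%, 40.5% and 47.2% in young and 50.5%, 61.1% and 44.7% in old libraries, against 0.943% to 2.06% with BEU. The remaining T40 bases rose by 41.7 ± 7.47 points in tRNA-Ala-AGC-7-1, 30.01 ± 4.30 in tRNA-Ala-TGC-4-1 and 25.4 ± 2.79 in tRNA-Ala-CGC-2-1 (SD, n = 6 pairs each). By anticodon the T40 averages of 45.7 ± 8.32 (Arg-TCT), 41.7 ± 7.47 (Ala-AGC), 39.8 ± 2.85 (Ala-TGC) and 38.7 ± 1.13 points (Ala-CGC) lay within their spread.

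Across positions, T38 and T40 gave about the same mean rise and T39 a lower one. The mean over tested T38 bases was 40.01 ± 0.863 points in young cells and 42.6 ± 1.77 in old cells, that over T39 bases 21.8 ± 1.18 and 21.6 ± 1.49, and that over T40 bases 40.4 ± 2.83 and 41 ± 0.183 (SD, n = 3 each). Within pairs T38 exceeded T39 by 19.6 ± 1.56 points (SD, n = 6 pairs; higher in 6 of 6; two-sided exact sign-flip permutation p = 0.0312, the smallest that 6 pairs allow; adjusted p = 0.0391 over 5 comparisons). T39 lay below T40 by 19.0 ± 1.48 points in 6 of 6 pairs, with the same exact p. T38 and T40 differed by 0.56 ± 2.00 points (range -2.59 to 3.25), higher at T38 in 3 of 6 pairs (exact permutation p = 0.5). The last sign turned in several other settings, to -4.55 points with 1 entry per anticodon and position. In that setting T38 exceeded T39 by less, 14.1 ± 3.62 points (SD, n = 6 pairs). The pairs share their tRNAs, so these p-values speak for the libraries and not for other tRNAs.

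Within T39, the 68 bases facing A31 averaged 21.4 points and the 3 facing T31 in Met-CAT averaged 28.7. The difference was -7.32 ± 4.04 points (SD, n = 6 pairs), below 0 in 6 of 6 pairs (two-sided exact permutation p = 0.0312, adjusted p = 0.0391). With no coverage minimum it was 1.75 points (exact permutation p = 0.281), so it rests on which entries were tested. T40 bases could not be compared by their partner, which was G in all 6, nor T38 bases by C or T at position 32, where C had 2 entries.

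On the other side of the same arm, T bases at positions 27 to 32 rose less. Of 224 tested there, 42.9% were called in young and 42% in old cells, and the mean rise was 14.2 ± 0.743 and 15.4 ± 0.927 points (SD, n = 3 each). T38 to T40 together exceeded them by 12.1 ± 0.804 points, in 6 of 6 pairs (two-sided exact permutation p = 0.0312, adjusted p = 0.0391). These 6 positions were themselves unequal, with 29.9 points at T27, 15.2 at T28, 2.74 at T29, 8.03 at T31 and 8.97 at T32, and 52.9 at the 2 tested T30 bases. A, C and G at positions 38 to 40 averaged 1.21 ± 0.668 points in young cells and 1.33 ± 0.438 in old cells (SD, n = 3 pairs each).

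**Figure D3:**
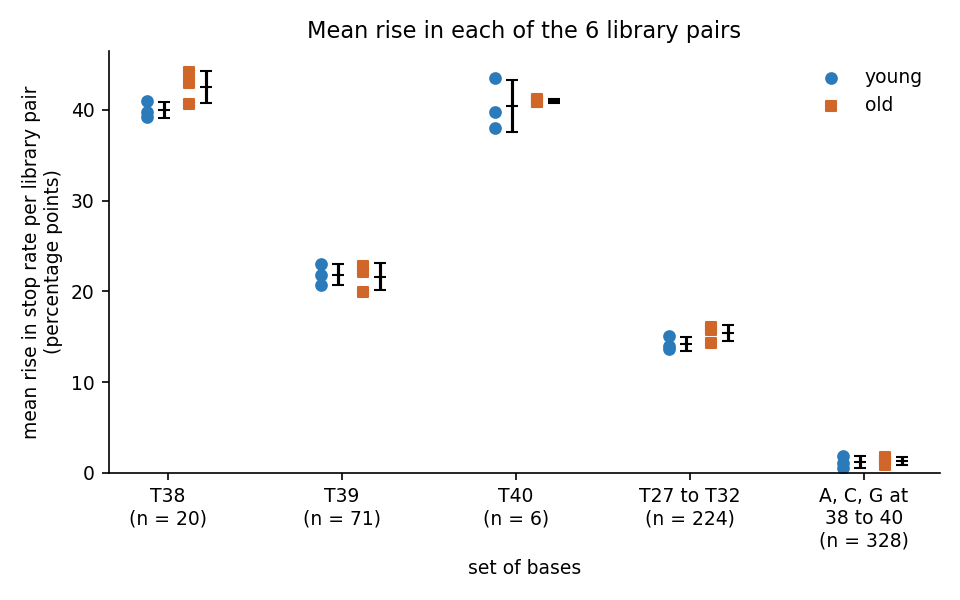
Mean rise in stop rate in each library pair for T38, T39, T40, T27 to T32 and the other bases at positions 38 to 40 (points; circles and squares, single pairs of young and old cells; black marks, mean ± SD of 3 pairs). T38 and T40 lie near 40 points in every pair and T39 near 22.

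Where a tRNA carried T at a pair of these positions, which one had more stops depended on the tRNA. In tRNA-Gly-CCC-1-1, with adjacent T38 and T39, the rise was 24.6 ± 3.72 points at T39, against 5.80 ± 1.51 at T38 (SD, n = 6 pairs each), and T39 was higher in 6 of 6 pairs. In tRNA-Leu-CAA-2-1 and tRNA-Leu-CAA-3-1, with the same pair of bases, T38 was the higher, at 53.2 ± 10.2 and 51.3 ± 10.6 points against 31.6 ± 5.41 and 31.8 ± 3.26 at T39. T38 was above T39 in all 6 pairs of both. The glycine arm has A at position 37 and T at 32, and the leucine arm G and C.

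In tRNA-Arg-TCT-1-1, with T39 and T40, the rise was 13.7 ± 5.36 points at T39 and 45.7 ± 8.32 at T40, a difference of -32 ± 6.39 (SD, n = 6 pairs) with T40 higher in every pair. Stops without CMC went the other way there, at 3.04% to 5.94% on T39 against 0.943% to 2.06% on T40. In alanine tRNAs, 5 entries carried T38 and T40. T38 was higher in all 6 pairs of tRNA-Ala-CGC-2-1, by 19.1 ± 1.82 points, and lower in all 6 pairs of tRNA-Ala-TGC-4-1, by 11 points on average (difference -11 ± 5.78). In tRNA-Ala-AGC-7-1, tRNA-Ala-CGC-1-1 and tRNA-Ala-TGC-2-1 the order changed from pair to pair, with T38 higher in 5, 3 and 2 of 6. So 6 of the 9 entries kept 1 order in all 6 pairs, 3 with T38 higher and 3 with it lower or with T40 above T39.

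Entries with the same anticodon arm, letter for letter from position 27 to 43, often differed in stop rate. There were 22 arms at a position with at least 2 tested entries, 76 bases in all, and the highest and lowest entry of an arm lay a median of 11.9 points apart. In 11 of the 22 their 6 pairs did not overlap. The widest gap, 40.8 points, was at T38 of 3 Ala-AGC entries with the arm shown for tRNA-Ala-AGC-4-1. There tRNA-Ala-AGC-5-1 had CMC rates of 23.7%, 34.8% and 29.4% in young and 24.7%, 29% and 29.5% in old libraries, and tRNA-Ala-AGC-6-1 rates of 69.8%, 69.5% and 71.0% in young and 71.2%, 74.8% and 71.5% in old. The rises were 27.6 ± 3.93 and 68.4 ± 2.23 points (SD, n = 6 pairs each).

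The 2 Lys-CTT entries with 1 arm gave 3.32 ± 3.36 points at T39 of tRNA-Lys-CTT-4-1 and 33.4 ± 1.79 in tRNA-Lys-CTT-3-1. In Gln-CTG they ran from 2.43 ± 1.38 in tRNA-Gln-CTG-1-1 to 32 ± 2.45 in tRNA-Gln-CTG-4-1, and in Tyr-GTA from 4.03 ± 2.35 in tRNA-Tyr-GTA-5-1 to 23.5 ± 4.17 in tRNA-Tyr-GTA-3-1 (SD, n = 6 pairs each). In tRNA-Ala-TGC-4-1 both T38 and T40 were lower than in tRNA-Ala-TGC-2-1, at 19.1 and 30.01 points against 44.8 and 49.6. By contrast, the gap was 0.0112 points between both Gln-TTG entries, which also share the sequence 3′ of T39. These examples were chosen after their values were seen.

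Between the lowest and highest entry of the arms with wide gaps, coverage went with the rise. In 13 arms the gap exceeded 10 points, and in all 13 the entry with the higher rise also had the higher median coverage, as tRNA-Ala-AGC-6-1 with 1597.5 reads against 321.5 in tRNA-Ala-AGC-5-1. In the remaining 9 arms this held in 2. The entry with the lowest rise had the lowest coverage of its arm in 9 of those 13 arms, and in 11 of all 22. How reads were shared out among near-identical tRNAs is not stated in the labels or files used here, and its part in these gaps was not tested.

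**Figure D4:**
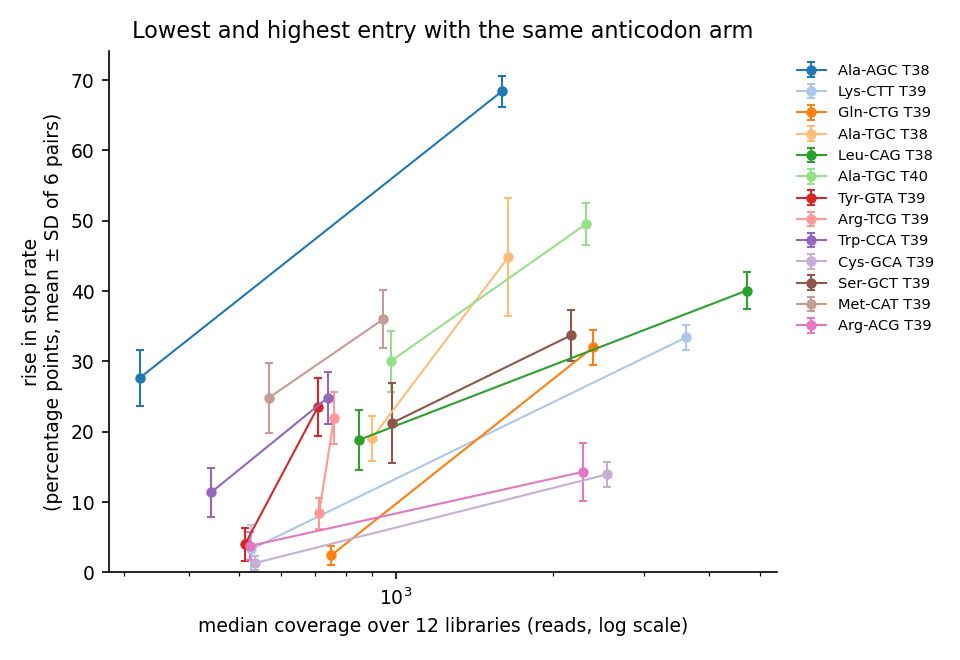
Lowest and highest entry among those with the same anticodon arm, for the 13 arms with a gap above 10 points (x axis, median coverage over 12 libraries in reads, log scale; y axis, rise in stop rate in points, mean ± SD of 6 pairs; lines join entries of 1 arm). Every line climbs to the right, and the widest gap is in Ala-AGC at T38, from 27.6 to 68.4 points.

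The 15 bases called at neither age all had low rises. They were T38 of tRNA-Gly-CCC-1-1 and 14 T39 bases, 7 in Cys-GCA, 2 each in Arg-TCG and Tyr-GTA and 1 each in Arg-ACG, Gln-CTG and Lys-CTT. Their rises averaged 1.33 to 9.63 points, under the 10-point minimum in all 15. An adjusted p under 0.05 (edgeR's quasi-likelihood test) was found at 13 of the 15 in young and 15 in old cells. A rise in all 6 pairs was seen at 97 of 97 bases, beside 51.9% of T rows and 30.8% of other bases. The lowest entry of the tables is 1 stop read, which at unequal depth raises the rate in the shallower CMC libraries. With 1 subtracted from stops and coverage, 84 of 96 bases rose in all 6 pairs, beside 36% of T rows and 10.4% of other bases. The calls then fell from 81 to 76 in young and from 82 to 77 in old cells. Such a floor of 1 stop read stood in at least 1 CMC library at 12 of the 97 bases, and in at least 2 at 11. All 12 were among the 15 called at neither age. The adjusted p-values above were taken with that read kept, so at these 12 they do not separate an effect of CMC from the floor.

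No base at these positions was called for a difference between old and young cells. The test was the interaction of age and CMC in edgeR's quasi-likelihood model at T rows with a mean rise of at least 10 points, 82 of them at positions 38 to 40, and it called 0 of these and 0 of 439 over all T rows (0%). The lowest adjusted p here was 0.909. An unadjusted p under 0.05 was found at 4 of the 82, beside 5.01% of all T rows tested, and DESeq2 and limma also called 0, with 2 and 1 at an unadjusted p under 0.05. Old minus young, the median over the 82 was 1.06 points, with 49 of 82 higher in old cells. Over all 439 T rows the median was 1.39 points, with 290 higher.

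Averaged by position, the difference was 2.56 ± 1.14 points at T38 (SE, n = 3 per age; two-sided exact permutation p = 0.2), -0.233 ± 1.10 at T39 (exact permutation p = 0.9) and 0.552 ± 1.64 at T40 (exact permutation p = 0.7). Adjusted over the 3 positions these p-values were 0.6, 0.9 and 0.9. With 3 pairs at each age no unadjusted p under 0.1 was possible.

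At 8 of the 82 bases the 3 young pairs lay apart from the 3 old ones, against 13% of all T rows tested. At T38 there were 5. In tRNA-Ala-TGC-2-1 the CMC rates were 37.3%, 41.4% and 36.3% in young and 53.0%, 55.8% and 50.0% in old libraries, and the rise was 37.5 ± 2.22 and 52.2 ± 3.05 points (SD, n = 3 each). Its difference of 14.7 ± 2.18 points (SE) was the highest of the 82 (edgeR interaction unadjusted p = 0.417), and 2 of its BEU libraries were at the ceiling. The next, tRNA-Ala-CGC-1-1, had young CMC rates of 48.9%, 51.8% and 50.5% and old ones of 65.2%, 69.1% and 60.1%, a difference in rise of 14.4 ± 2.80 points (SE; edgeR unadjusted p = 0.0239). A read stopped at T38 has the same sequence in both, so these are not separate measurements, and at T40 of the same 2 tRNAs the differences were -2.59 ± 2.44 and -4.03 ± 2.21 points (SE), with overlap. Smaller differences without overlap were 3.05 points in tRNA-Ala-AGC-4-1 and 2.94 in tRNA-Ala-AGC-6-1, both higher in old cells (edgeR unadjusted p = 0.108 and 0.191). T38 of tRNA-Leu-CAG-4-1 was lower in old cells, at 21.7 ± 4.25 points in young cells and 15.9 ± 1.5 in old cells (SD, n = 3 pairs each; edgeR unadjusted p = 0.0191).

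At T39 the 3 bases without overlap were all lower in old cells. T39 of tRNA-Ile-TAT-2-1 had CMC rates of 52.7%, 46% and 53.8% in young and 32.7%, 37.5% and 30.8% in old libraries. Its BEU rates were 3.10%, 3.63% and 3.22% in young and 2.17%, 3.08% and 2.35% in old libraries, so both kinds of library were lower in old cells. The rise differed by -16.4 ± 3.13 points (SE; edgeR unadjusted p = 0.277). T39 of tRNA-Phe-GAA-1-1 rose by 40.6 ± 3.09 points in young cells and 32.9 ± 2.57 in old cells (SD, n = 3 each; edgeR interaction unadjusted p = 0.959). That of tRNA-Phe-GAA-2-1, with nearly the same values, rose by 40.6 ± 2.72 and 33 ± 2.55 (SD, n = 3 each; edgeR unadjusted p = 0.986). Each had 2 libraries at the ceiling, young BEU replicate 3 and old BEU replicate 1, where the stop rate was at most 0.05%. The next lowest were T39 of tRNA-Phe-GAA-3-1 (-6.62 ± 5.45) and tRNA-Arg-CCG-2-1 (-5.91 ± 3.51), and the next highest T38 of tRNA-Leu-CAA-3-1 (10.2 ± 8.24), T40 of tRNA-Arg-TCT-1-1 (10.0 ± 5.71) and T38 of tRNA-Leu-CAA-2-1 (8.34 ± 8.29; SE each), all with overlapping pairs.

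**Figure D5:**
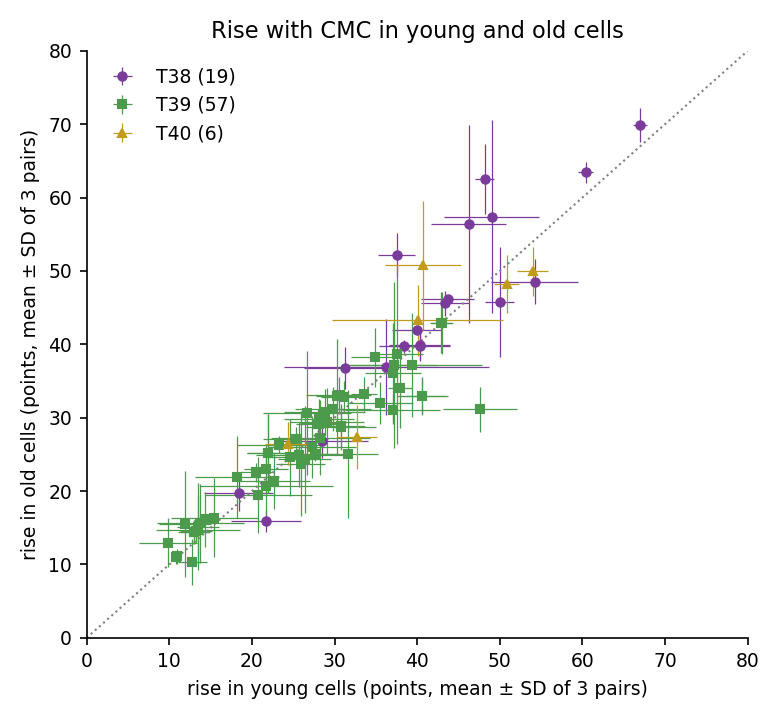
Rise in stop rate in young against old cells for the 82 bases in the age test (points, mean ± SD of 3 pairs on both axes; dotted line, equal values). T38 of tRNA-Ala-CGC-1-1 and of tRNA-Ala-TGC-2-1 lies above the line, at 62.5 and 52.2 points in old cells, and T39 of tRNA-Ile-TAT-2-1 lies below it, at 47.6 points in young cells and 31.1 in old cells.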

How the data were processed

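The 12 libraries profile tRNA by reverse transcription stops with and without CMC. The authors deposited 6 tables, and each pairs 1 BEU with 1 CMC library that share age and number. Per the file headers, a row gives coverage as a count of reads, how many stopped, and their share in percent, which recomputed exactly from the other columns. Bowtie, Bowtie2 2.3.5 and mm10 are listed, without roles, per the submitters' processing notes. Which read ends counted as stops is not stated in the labels or files.

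Stop and read-through counts were fitted with edgeR 4.0.16 (R 4.3.3), with a coefficient per library, a log-odds coefficient per group, equal library sizes and no dispersion trend, at bases with coverage of at least 20 in all 12 libraries. The age test was adjusted over 439 T rows. Means by position were compared within the 6 tables by exact permutation. The model was checked on simulated counts. Alternatives used DESeq2 1.42.0, limma 3.58.1 (0.5 added to counts), other minimums and sets of entries, a replicate block, and libraries left out. The tables give no molecular identifiers, so counting error understates the spread. The main edgeR fit did not take replicate numbers as pairing the samples, while rises were taken within each deposited table.

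Members, lists and tests were chosen with earlier results of these data known. Named are, per position, among the best-covered entries of each anticodon, the 8 with the highest and the 4 with the lowest rise of their own (all where fewer), called T40 bases, entries with T at several positions, and the 5 highest and 5 lowest age differences, with those called. No entry name was found in the gene table, so positions are within the tRNA.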

Additional observations from a re-analysis of the deposited data

Results flagged for a closer look

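Lysine tRNA-Lys-TTT lies outside the bases described above, because its anticodon letters fit at more than 1 place and it could not be numbered. It carries T in row 39, and CMC raised stops there, above the BEU level of 2.07% to 2.27% in the same cells. In tRNA-Lys-TTT-1-1 row 39 rose by 32.4 points over the 6 pairs, with 34.3 ± 2.65 in young cells and 30.5 ± 3.08 in old cells (SD, n = 3 pairs each; edgeR adjusted p = 2.42e-07 and 2.39e-07). In tRNA-Lys-TTT-2-1 row 39 rose by 32.6 points, with 34.5 ± 2.46 and 30.6 ± 2.95.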

How the results depend on the processing

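Of 82 bases called in old cells 82 remained with DESeq2, limma or an adjustment over T alone, as did 81 of 81 in young cells. The counts were 76 in young and 77 in old cells (of 96) with 1 subtracted from stops and coverage. They were 150 and 151 (of 197) with all entries and 46 and 47 (of 56) below the coverage ceiling. With 1 member per anticodon and position they were 34 and 34 (of 35). They ranged from 71 to 81 in young and from 78 to 82 in old cells with a replicate left out, and the age count was 0 in every setting.

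The difference between T38 and T40 turned to -1.31 points with a coverage minimum of 10, -2.55 with all entries and -4.55 with 1 member per anticodon and position. In the last of these settings T38 minus T39 fell to 14.1 points. T39 minus T40 was -18.6 there, and T38 to T40 minus T27 to T32 was 17.2. Age differences turned to 0.149 points at T39 with no coverage minimum and -0.413 at T40 with all entries. With no coverage minimum the A31 difference at T39 was 1.75 points. T38 minus T39 was then 20.2, T39 minus T40 -18.8 and T38 to T40 minus T27 to T32 10.0, each with an adjusted exact permutation p of 0.0625. With a replicate left out, these ranged from 19.1 to 19.9, from -20.0 to -18.6 and from 11.2 to 12.4 points, the A31 difference from -9.12 to -6.29 and T38 minus T40 from -0.89 to 1.19. The 5 pairs left allow no p under 0.0625. The age difference ranged from 1.36 to 3.52 points at T38, from -0.809 to 0.607 at T39 and from -0.675 to 2.10 at T40.

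The replicate numbers showed no pairing of the samples (correlations of deviations from -0.141 to 0.044, none highest with its own number). Rises, their SDs and the counts of pairs follow the deposited tables and so rest on that matching. With a replicate block 77 bases were called in young and 80 in old cells and 0 for age. The T38 and T40 comparisons by facing base could not be run, and the A31 comparison could not be run with a coverage minimum of 50 or with 1 member per anticodon and position. Coverage under 20 reads left 42 of 139 bases without a test.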
